A study of Mus musculus with 10 samples.

Results

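The genes described here write, erase or read methylation of lysine 9 of histone H3 (H3K9). They are the methyltransferase genes Suv39h2, Setdb1, Ehmt1 and Ehmt2, the demethylase genes Kdm4a, Kdm4b and Kdm4c, and the heterochromatin protein 1 (HP1) genes Cbx1, Cbx3 and Cbx5. These 10 genes were chosen by name from the 18193 genes with a named probe set, and a gene was read by whichever of its probe sets was brightest on average across the 10 arrays. Of the 10, 9 passed the filter on low signals and were tested among 11472 genes; Cbx3 did not. The RNA came from B-cell lymphomas of Emu-myc;Suv39h1-/- mice, in which a Myc transgene is active in the B-cell lineage and Suv39h1 is deleted in every sample, controls included. All cells carried a retroviral Bcl2, had been selected with puromycin and grew on irradiated NIH 3T3 fibroblasts. Each of 5 lymphomas was measured untreated and after 5 days of Adriamycin (ADR, doxorubicin) at 0.05 µg/ml in culture, which gives 5 arrays per group, paired by lymphoma. No Suv39h1-proficient lymphoma is part of the comparison, and the mice's ages were not given in the sources used here.

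H3K9 methylation marks silent chromatin. Di- and trimethylated H3K9 is bound by the chromodomain of HP1 proteins, which also recruit methyltransferases and so help the mark to spread along chromatin; KDM4 enzymes remove it. Suv39h1 and Suv39h2 trimethylate H3K9 at pericentric repeats and can stand in for each other, Setdb1 acts with zinc finger proteins and Trim28 at retroelements, and the pair encoded by Ehmt1 and Ehmt2 (GLP and G9a) places mono- and dimethylation in euchromatin. In Myc-driven lymphomas, Suv39h1 is known as a gene that drug-induced senescence depends on, and ADR is a DNA-damaging drug used to induce it.

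Levels are log2 signals of RMA, a normalization method for arrays that the authors applied, and a change is the log2 difference of ADR minus untreated within a lymphoma. Signals of different genes come from different probes and are not set against each other. Medians of 9 arrays fell within 4.43 to 4.50, whereas ADR-treated lymphoma_1032 had 4.15, and the median change of all tested genes in that lymphoma was -0.17. No probe set was named for Suv39h1, so the deletion was not checked here. Of the 10 measured B-cell markers all were tested, and their mean signal lay between 8.69 and 10.11 on untreated arrays and between 8.39 and 10.08 on ADR arrays. The 14 macrophage markers had mean signals from 5.30 to 8.92 untreated and from 5.44 to 8.98 with ADR, the 16 fibroblast markers from 4.85 to 6.25 and from 4.80 to 6.60, and the 8 T-cell markers from 4.52 to 5.26 and from 4.43 to 4.91. None of the macrophage markers, 1 fibroblast marker (Lum) and 2 T-cell markers (Cd3g and Cd8b1) were at or below the table's median on all 10 arrays. In bulk RNA, fewer cells of a type and less RNA per cell cannot be told apart.

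The starts of these genes are shown because Myc, which binds CACGTG (an E-box), and E2F factors, which bind sites such as TTCCCGC or TTTGGCGC, act in these cells. The 250 bases before each start were searched on both strands in the RefSeq promoter table (GRCm38.p6), which held 13 starts of 9 of the 10 genes, none for Kdm4b. CACGTG reads the same on both strands and was found before a start of Cbx5, Kdm4c and Ehmt2, in 4 of the 13 windows, against 6.02% of all 32851. TTCCCGC was found for Suv39h2 (3.82% of all windows) and TTTGGCGC for Cbx3 (0.417%). The letters of the motif are in capitals, the bases around it in lower case, each on the strand of its gene. A match is a description of letters and shows no binding.
Suv39h2 (chr2:3475098-3475158, minus strand, TTCCCGC starting 145 bases before the start): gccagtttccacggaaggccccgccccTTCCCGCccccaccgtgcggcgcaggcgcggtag
Cbx3 (chr6:51470421-51470482, plus strand, TTTGGCGC, 168 bases before): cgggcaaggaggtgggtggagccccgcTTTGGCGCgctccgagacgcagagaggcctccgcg
Cbx5 (chr15:103239956-103240015, minus strand, CACGTG, 136 bases before): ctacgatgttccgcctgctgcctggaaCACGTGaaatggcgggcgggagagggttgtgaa
Kdm4c (chr4:74251767-74251826, plus strand, CACGTG, 85 bases before): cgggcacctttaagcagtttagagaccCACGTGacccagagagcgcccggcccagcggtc
Ehmt2 (chr17:34898421-34898473, plus strand, CACGTG, 26 bases before): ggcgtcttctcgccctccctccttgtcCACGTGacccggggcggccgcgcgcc
The same Kdm4c start had a second CACGTG 53 bases before it, and the Ehmt2 start another 232 bases before it.

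With ADR, none of the 9 tested genes passed the threshold, an adjusted p below 0.05 in limma's paired fit (Benjamini-Hochberg over 11472 genes), and their adjusted p ranged from 0.565 for Cbx5 to 0.997 for Ehmt2. The background was 0% of all genes called. At an unadjusted p below 0.05 there was 1 of 9, Cbx5, against 8.48% of all genes (973; 4.52% lower and 3.97% higher). The mean change was below 0 for 7 of 9 genes and above 0 for Setdb1 and Kdm4a, against 55.2% of all genes below 0. The median change of the 9 was -0.19, beside -0.024 for all tested genes. No gene had 1 direction in all 5 lymphomas, which 4.82% of all genes had as lower and 4.67% as higher. The untreated and ADR signals overlapped for all 10 genes, while 0.357% of all tested genes had no overlap. By lymphoma, 9 of the 9 were lower in lymphoma_1032, 2 in lymphoma_4936, 5 in lymphoma_5783, 8 in lymphoma_7890 and 3 in lymphoma_9250, beside 65.6%, 43.6%, 46.3%, 51.5% and 52.9% of all tested genes in the same order. After each array was centred on its median, 4 of 9 were lower in lymphoma_1032, and Setdb1, Ehmt1, Ehmt2, Cbx1 and Kdm4a were higher there. The share of all genes lower in lymphoma_1032 after centring was not counted. Over the 5 lymphomas, 6 of 9 mean changes were then below 0, against 39.1% of all tested genes. As deposited, the members' median change in lymphoma_1032, -0.16, was close to that of all genes given above. Without lymphoma_1032, 5 of 9 had a mean change below 0 and the median was -0.074, beside 47.2% and 0.014 for all tested genes. Without lymphoma_7890 these were 6 of 9 and -0.12, beside 55.8% and -0.030. Without lymphoma_5783, 8 of 9 were below 0, against 58.6% of all tested genes. Without lymphoma_9250 or lymphoma_4936, 7 of 9 were below 0, against 54.3% and 57.8%.

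**Figure D1:**
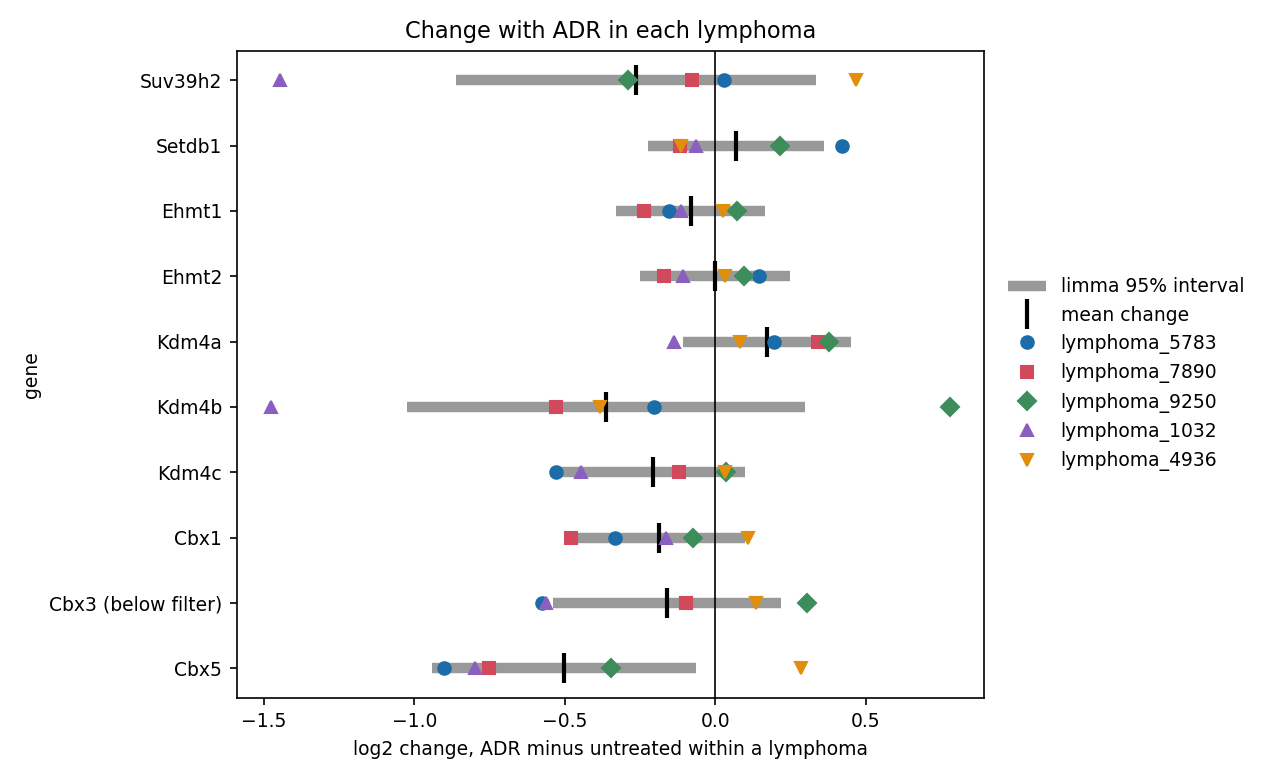
Log2 change of each of the 10 genes with ADR, 1 symbol per lymphoma, with the mean as a black tick and limma's 95% interval as a grey bar. The interval of Cbx5, -0.94 to -0.063, is the one that leaves out 0, and lymphoma_1032 lies far to the left for Suv39h2 and Kdm4b.

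Suv39h2, which encodes the sister enzyme of the missing Suv39h1, had no common direction in its brightest probe set. Its untreated signals were 6.05 in lymphoma_1032, 5.95 in lymphoma_4936, 5.56 in lymphoma_5783, 6.34 in lymphoma_7890 and 6.70 in lymphoma_9250. With ADR they were 4.60, 6.41, 5.59, 6.26 and 6.41 in the same order. The ADR array of lymphoma_1032 was the lowest of the 10, lymphoma_4936 was higher with ADR, and the groups overlapped. The mean change was -0.26 ± 0.72 (SD, n = 5), with a 95% interval of -0.86 to 0.33 and an adjusted p of 0.757 in limma. In lymphoma_1032 the change was -1.45 as deposited, -1.16 after each array was centred on its median and -1.03 after another quantile normalization. Without lymphoma_1032 the mean change was 0.033. The other Suv39h2 probe sets, with lower signals, had mean changes of -0.64 ± 0.71 and -0.21 ± 0.33, and in lymphoma_5783, where the brightest probe set had a change of 0.030, they had -1.20 and -0.28. The probe set with -0.64, above the table median on 8 arrays, was lower in 4 lymphomas. Its unadjusted p was 0.0302 and its adjusted p 0.663 in limma over all single-gene probe sets. All 3 probe sets had the same sign in lymphoma_1032, lymphoma_4936 and lymphoma_9250 and mixed signs in the other lymphomas.

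Setdb1, a trimethylating enzyme of retroelement silencing, had untreated signals of 8.26 in lymphoma_1032, 8.83 in lymphoma_4936, 7.85 in lymphoma_5783, 8.02 in lymphoma_7890 and 8.03 in lymphoma_9250. With ADR the signals were 8.19, 8.71, 8.27, 7.91 and 8.25. Lymphoma_4936 was highest in both groups. The mean change was 0.068 ± 0.24 (SD, n = 5; 95% interval -0.22 to 0.36) and came from lymphoma_5783 and lymphoma_9250; without lymphoma_5783 it was -0.020. A dimmer probe set of Setdb1, above the table median on all arrays, had a change of -0.11 ± 0.69, and the dimmest, above the median on 2 arrays, had 0.18 ± 0.28, so the direction depended on the probe set.

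Ehmt1 and Ehmt2, whose proteins work as a pair, had the smallest spread of changes between lymphomas. Ehmt1 had signals from 8.46 to 9.20 in untreated and from 8.34 to 9.28 in ADR cells, with a mean change of -0.082 ± 0.13 (SD, n = 5; 95% interval -0.33 to 0.17). Ehmt2 had untreated signals of 9.66 in lymphoma_1032, 9.12 in lymphoma_4936, 9.63 in lymphoma_5783, 9.80 in lymphoma_7890 and 9.92 in lymphoma_9250, and ADR signals of 9.55, 9.15, 9.78, 9.63 and 10.02. Its mean change was -0.0014 ± 0.13, with a 95% interval of -0.25 to 0.25, and 0.079 after each array was centred on its median. Both intervals leave out a change of 0.5 in either direction. Such a bound rests on the brightest probe set: the dimmer one of Ehmt2 had changes from -0.80 in lymphoma_1032 to 0.92 in lymphoma_4936, with a mean of -0.087.

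Among the demethylases, which belong to 1 family of JmjC enzymes, the directions differed. Kdm4a had a higher signal with ADR in 4 of 5 lymphomas, from 7.30 to 7.84 untreated and from 7.60 to 8.04 with ADR. Its change was 0.17 ± 0.21 (SD, n = 5), with a 95% interval of -0.11 to 0.45. After centring of the arrays, which left 39.1% of all tested genes with a mean change below 0, Kdm4a was higher in all 5 lymphomas. The share of all genes higher in all 5 after centring was not counted. After another quantile normalization the change of Kdm4a in lymphoma_1032 was -0.0017. A second Kdm4a probe set, below the table's median on all arrays, had a mean change of -0.32.

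Kdm4b had the largest SD of the changes among the 10 genes. Its untreated signals were 6.81 in lymphoma_1032, 6.82 in lymphoma_4936, 6.77 in lymphoma_5783, 6.74 in lymphoma_7890 and 6.04 in lymphoma_9250. With ADR they were 5.34, 6.44, 6.57, 6.21 and 6.82. The signal of lymphoma_9250 was the lowest untreated and the highest with ADR, and lymphoma_1032 had the lowest signal with ADR. The mean change was -0.36 ± 0.81 (95% interval -1.03 to 0.30), -0.084 without lymphoma_1032 and -0.65 without lymphoma_9250. In lymphoma_1032 the change of -1.48 was -1.01 after another quantile normalization.

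Kdm4c had untreated signals of 7.79 in lymphoma_1032, 6.11 in lymphoma_4936, 7.60 in lymphoma_5783, 7.05 in lymphoma_7890 and 7.18 in lymphoma_9250. With ADR they were 7.34, 6.14, 7.07, 6.92 and 7.21. Its mean change was -0.21 ± 0.27 (SD, n = 5; 95% interval -0.51 to 0.099), mainly from lymphoma_5783 and lymphoma_1032, where it had the highest untreated signals. In lymphoma_1032 the change was -0.45 as deposited, -0.16 after each array was centred on its median and -0.27 after another quantile normalization. Both arrays of lymphoma_4936 were the lowest of the 10.

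**Figure D2:**
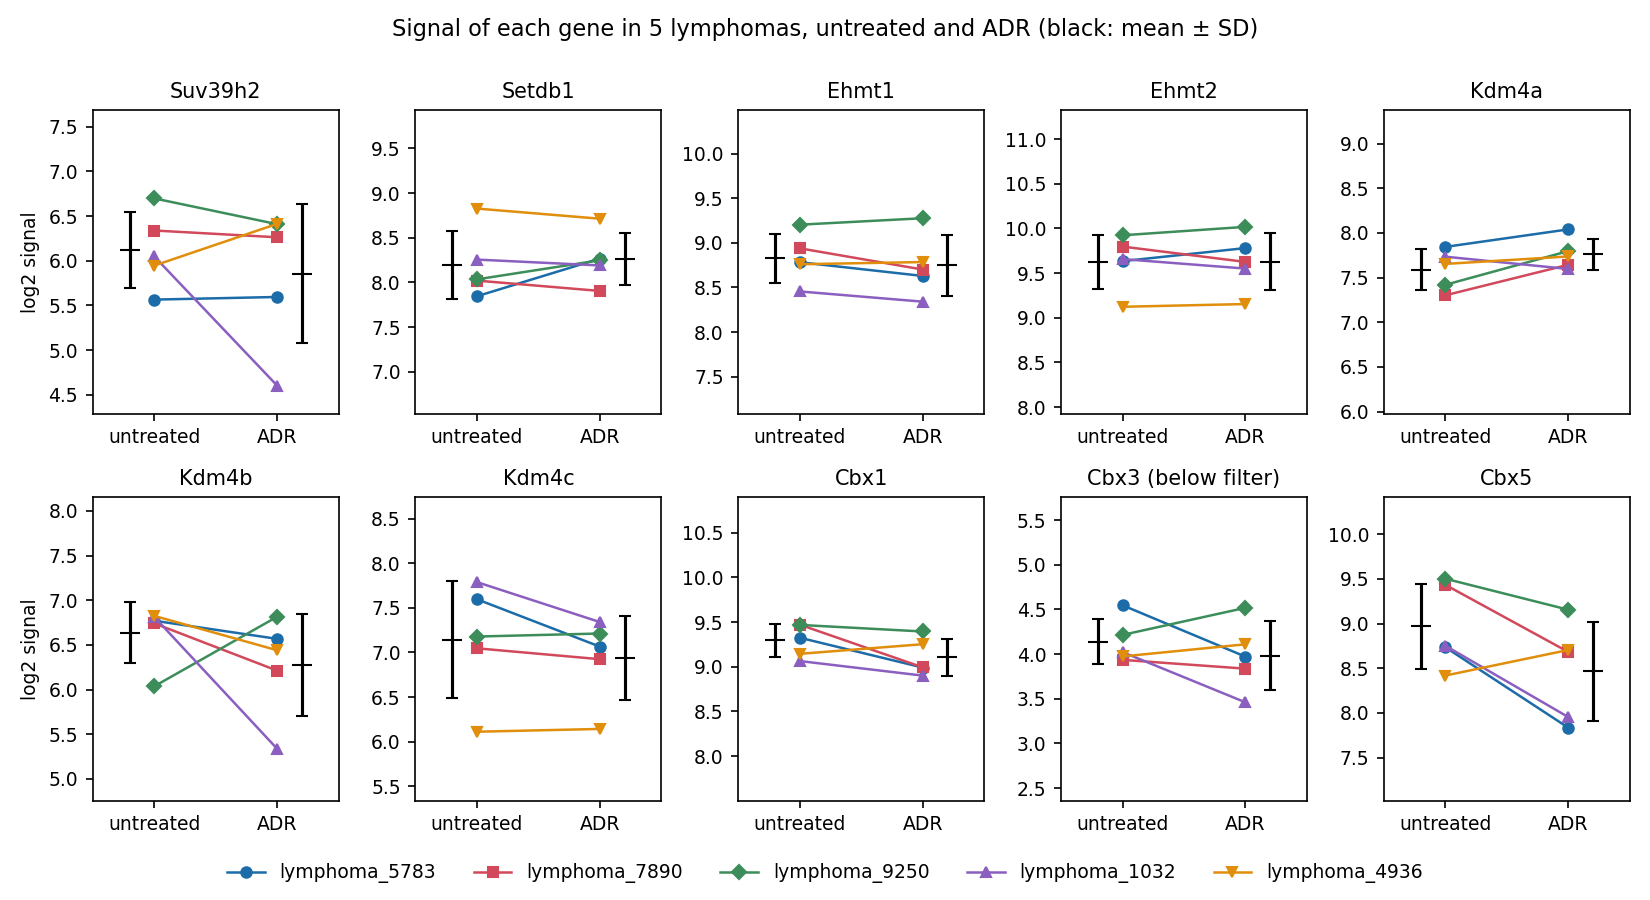
Log2 signal of each of the 10 genes in untreated and ADR cells, with a line for each lymphoma and black bars for mean ± SD over 5 lymphomas; all panels span the same log2 range. Cbx5 goes down in 4 of 5 lymphomas, and Kdm4c of lymphoma_4936 stays at 6.11 and 6.14, below all other arrays.

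Of the HP1 genes, Cbx5 (HP1 alpha, found at pericentric heterochromatin) had the largest mean change of the 9 tested genes. Its untreated signals were 8.75 in lymphoma_1032, 8.42 in lymphoma_4936, 8.74 in lymphoma_5783, 9.43 in lymphoma_7890 and 9.50 in lymphoma_9250. With ADR they were 7.95, 8.70, 7.83, 8.68 and 9.16. The signal was lower in 4 lymphomas and higher in lymphoma_4936, and the groups overlapped. The mean change was -0.50 ± 0.49 (SD, n = 5), a percent change of -29.4%, with an unadjusted p of 0.0303 and an adjusted p of 0.565 in limma. A change of at least 0.5 in size was present in 5.95% of all genes. Without lymphoma_4936 the mean was -0.70 and the adjusted p 0.153. Without lymphoma_5783, lymphoma_7890 or lymphoma_1032 the means were -0.40, -0.44 and -0.43, and each 95% interval included 0, so the unadjusted p below 0.05 was lost, as it was without the pairing and with averaged probe sets. Over all alternatives the adjusted p of Cbx5 ranged from 0.153 to 0.9999. The other probe sets of Cbx5 had mean changes from -0.24 to -0.10, all below 0. Their lowest unadjusted p was 0.175 in limma over all single-gene probe sets. Of the 5 probe sets, 3 lay above the table median on all arrays, the brightest included. The dimmest lay below it on all arrays. The next dimmest lay above it on 5 arrays and had a change above 0 in lymphoma_5783. The mean of all 5 probe sets, dim ones included, gave -0.25.

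Cbx1 (HP1 beta, also mostly heterochromatic) had signals from 9.06 to 9.47 untreated and from 8.90 to 9.39 with ADR. It had lower signals in the same 4 lymphomas, with changes of -0.16 in lymphoma_1032, -0.33 in lymphoma_5783, -0.48 in lymphoma_7890 and -0.074 in lymphoma_9250, and a change of 0.11 in lymphoma_4936. The mean change was -0.19 ± 0.23 (SD, n = 5; 95% interval -0.47 to 0.098). After centring of the arrays the change in lymphoma_1032 was 0.13, with lower signals in 3 of 5 lymphomas, and the mean was -0.11; averaging of its probe sets gave -0.037. Of its 3 probe sets above the table median on all arrays, 2 had a mean change below 0, and the third had 0.14.

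Cbx3 (HP1 gamma, found in euchromatin as well) could hardly be measured under the rule. Its only probe set named for 1 gene lay above the table's median of 4.43 on 2 of 10 arrays, with signals from 3.93 to 4.55 untreated and from 3.46 to 4.52 with ADR. There were 4 further probe sets annotated to both Cbx3 and the pseudogene Cbx3-ps5, and 3 of them had means of 10.51, 10.27 and 9.73 over the 10 arrays. In these the transcripts of gene and pseudogene cannot be told apart. The brightest had untreated signals of 10.23 in lymphoma_1032, 10.44 in lymphoma_4936, 10.64 in lymphoma_5783, 10.73 in lymphoma_7890 and 10.77 in lymphoma_9250. With ADR they were 10.26, 10.49, 10.43, 10.46 and 10.64. The changes of the 3 bright shared probe sets averaged -0.11 ± 0.15, -0.19 ± 0.28 and -0.23 ± 0.26 (SD, n = 5), with negative values in lymphoma_5783, lymphoma_7890 and lymphoma_9250 and positive ones in lymphoma_4936.

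Proliferation genes were read beside the HP1 genes. The 19 tested genes of this list, such as Mki67, which encodes the proliferation marker Ki-67, all had a mean change below 0, against 55.2% of all tested genes. Of the 19, 0 passed the threshold, and the median was -0.44. The list's mean was -0.64 in lymphoma_1032, 0.68 in lymphoma_4936, -1.16 in lymphoma_5783, -0.65 in lymphoma_7890 and -0.52 in lymphoma_9250. Cbx5 had -0.80, 0.29, -0.90, -0.75 and -0.35 in the same lymphomas, with the same sign in each. Suv39h2 had the list's sign in lymphoma_7890, lymphoma_9250, lymphoma_1032 and lymphoma_4936. The part of proliferation in these values was not tested. The 10 tested macrophage markers had changes of 1.04, 0.23, 1.22, 0.25 and -0.16 in the same order. The 10 tested fibroblast markers had 0.32, 0.12, 0.65, -0.18 and 0.068. Both lists were highest in lymphoma_5783 and lymphoma_1032, where Cbx5 had its lowest changes as deposited. This ranking of Cbx5 turned on the processing. In lymphoma_1032 its change was -0.51 after each array was centred on its median and -0.71 after another quantile normalization. Cbx5 was then lower in lymphoma_7890, at -0.74 and -0.75. The part of macrophages and fibroblasts in these values was not tested either.

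Genes most like the members were taken by Pearson's r over the 10 arrays, which are pairs from 5 lymphomas, so r is a description. For Cbx5 these were Wdr76 (r = 0.970), Dnmt1, the maintenance DNA methyltransferase (0.959), and Rpain (0.948). Mki67 ranked 26th at 0.919 and Cbx1 96th at 0.877. For Suv39h2 they were Zfp874b (0.972), Entpd6 (0.970) and Zbtb45 (0.960), while Cbx5 had 0.787. Of the 36 pairs among the 9 members, Cbx1 with Cbx5 had the highest r and Setdb1 with Kdm4c the lowest, -0.747.

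**Figure D3:**
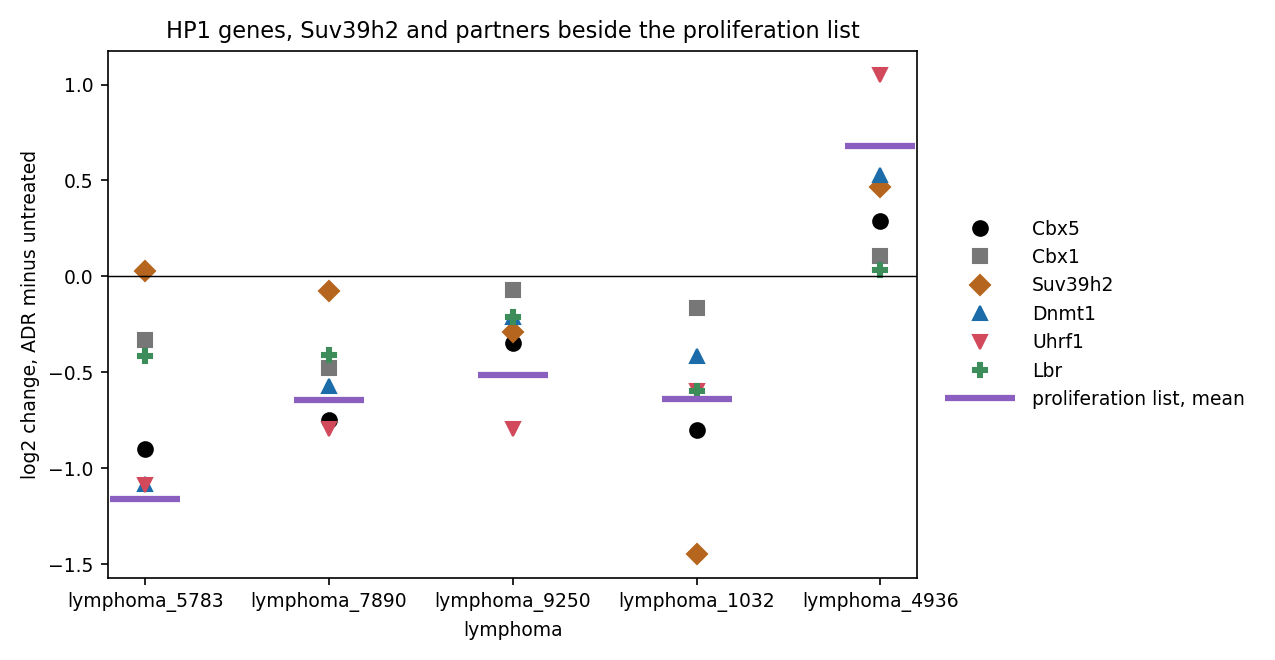
Log2 change with ADR in each lymphoma of Cbx5, Cbx1, Suv39h2 and the partner genes Dnmt1, Uhrf1 and Lbr, beside the mean of 19 proliferation genes (purple bar). In lymphoma_4936 all 6 genes and the proliferation mean, 0.68, lie above 0; in the other lymphomas they lie below 0, apart from Suv39h2 in lymphoma_5783 at 0.030. After centring of the arrays Cbx1 lies at 0.13 in lymphoma_1032. The partner genes were picked from these same data. Dnmt1 was among the genes most like Cbx5, Uhrf1 was named for the size of its mean change, and Lbr was named after its values were seen. Their signs shared with Cbx5 are therefore no separate result.

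The other genes of H3K9 methylation were read from lists chosen by function, and 0 of their tested members passed the threshold with ADR in either direction. Of 18 tested methyltransferases and partners, 10 had a mean change below 0, close to the 55.2% of all tested genes, and the median was -0.030. Atf7ip, the partner that protects Setdb1 in the nucleus, had a higher signal in all 5 lymphomas, with changes of 0.40 in lymphoma_1032, 0.24 in lymphoma_4936, 0.81 in lymphoma_5783, 0.46 in lymphoma_7890 and 0.74 in lymphoma_9250. Its signals lay from 7.16 to 7.40 untreated and from 7.40 to 7.98 with ADR, the highest untreated just below the lowest ADR signal. Of all tested genes, 0.357% had no overlap in either direction and 4.67% were higher in all 5 lymphomas. Atf7ip was named by a rule that takes genes with 1 sign in all 5 lymphomas, so its common direction is no separate result. Its mean change was 0.53 ± 0.24 (SD, n = 5), with an unadjusted p of 0.00331 and an adjusted p of 0.565 in limma, and 0.24 as the mean of all its probe sets. Tasor, a subunit of the HUSH complex that works with Setdb1, was also higher in all 5, with 0.28 ± 0.20 (adjusted p = 0.577 in limma). Uhrf1, which reads H3K9 methylation for Dnmt1, had -0.45 ± 0.86, with 1.05 in lymphoma_4936 and -1.09 in lymphoma_5783, and the deacetylase gene Sirt1 had -0.18 ± 0.31.

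Of 7 tested demethylases outside the KDM4 genes, 6 had a mean change below 0, against 55.2% of all tested genes. Their median was -0.077, and none had an unadjusted p below 0.05. Kdm3a, which removes mono- and dimethylation, had -0.39 ± 0.53, of which -1.23 was in lymphoma_1032; without it the mean was -0.19. Kdm7a had -0.32 ± 0.41.

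Of 20 tested HP1 partners and assembly factors, 18 had a mean change below 0, against 55.2% of all tested genes. Their median was -0.22, beside -0.024 for all tested genes. By lymphoma the list's mean was -0.45 in lymphoma_1032, 0.17 in lymphoma_4936, -0.39 in lymphoma_5783, -0.36 in lymphoma_7890 and -0.18 in lymphoma_9250, the same signs as the proliferation list. Cenpa, the centromeric histone, had -0.80 ± 0.38 (adjusted p = 0.565 in limma). Its signal was lower in all 5 lymphomas, as for 4.82% of all tested genes. Aurkb, the kinase that phosphorylates the serine beside H3K9 in mitosis, had -0.70 ± 0.99, and Sgo1, a cohesin protector, -0.57 ± 0.71. Dnmt1 had -0.35 ± 0.59, and Lbr, the lamin B receptor that binds HP1, had -0.32 ± 0.24; Lbr was named after its values were seen. Several of these genes are themselves cell cycle genes, so their count is not separate from that of the proliferation list.

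Of 12 tested genes of senescence-associated heterochromatin, 7 had a mean change below 0, close to the 55.2% of all tested genes. Their median was -0.096. H3f3b, a gene of histone H3.3, had -0.78 ± 0.68 (adjusted p = 0.565 in limma), and Hmga2, an architectural protein of such heterochromatin, had 0.78 ± 1.05, with 2.55 in lymphoma_5783 and 0.34 on average without it.

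The lymphomas themselves were then compared, with treatment as a covariate, by limma's F test, which asks whether a gene differs between the 5 lymphomas by more than the spread within their pairs. Of the 9 genes, 1 passed an adjusted p below 0.05, Kdm4c (adjusted p = 0.0140), against 26.9% of all 11472 genes. This count turned on the processing: it was 5 of 9 against 33.6% of all genes with a trended robust prior, 4 of 9 against 31.7% after another quantile normalization and 3 of 9 against 39.6% with a stricter filter. Ehmt2 had an adjusted p of 0.0526, Ehmt1 of 0.0531, Setdb1 of 0.0785 and Cbx5 of 0.0893, while Cbx1, Kdm4a, Kdm4b and Suv39h2 had 0.157 or more. The pair means of Kdm4c were 7.56 in lymphoma_1032, 6.13 in lymphoma_4936, 7.33 in lymphoma_5783, 6.99 in lymphoma_7890 and 7.20 in lymphoma_9250, a range of 1.44. Its call rested on lymphoma_4936, without which the adjusted p was 0.230. In this lymphoma, chosen after its values were seen, 3 of the 9 genes had both arrays outside the range of the other 8: Kdm4c and Ehmt2 below it and Setdb1 above it, against 16.0% of all genes. Kdm4a had both arrays of lymphoma_5783 above the others (6.64% of all genes), and no member had this for lymphoma_7890 (5.68%). Ehmt1 and Ehmt2 had both arrays of lymphoma_9250 above the others, and Ehmt1 both of lymphoma_1032 below, where 9.79% and 26.4% of all genes had a lymphoma's arrays outside the range. The SD between the pair means of the lymphomas had a median of 0.30 over the 9 genes and over all tested genes. Of the tested cell type markers, 10 of 10 for macrophages and 6 of 10 for fibroblasts passed the same F test. For B cells 5 of 10 passed it, and for T cells 1 of 5. The part of cell content in the differences between lymphomas was not tested.

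**Figure D4:**
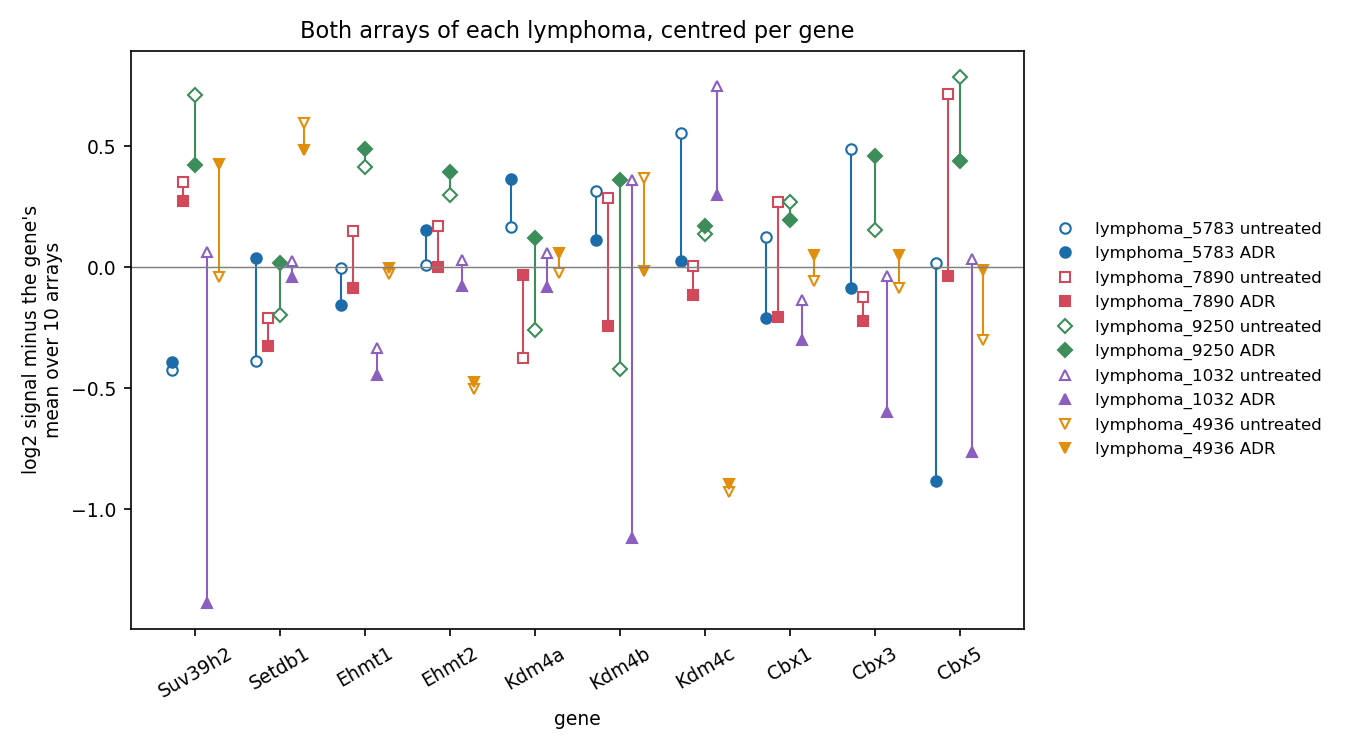
Log2 signal of both arrays of each lymphoma (open, untreated; filled, ADR; joined by a line) minus the gene's mean over the 10 arrays. The pairs of lymphoma_4936 stand apart for Setdb1, Ehmt2 and Kdm4c with little distance between untreated and ADR, whereas the pairs for Cbx5 are long.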

How the data were processed

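The authors deposited log2 signals, 1 per probe set and array, from Affymetrix mouse arrays, for which the submitters' processing notes name Partek and RMA; their settings and the log base, not given in the sources used here, stay unknown, and the values were read as log2 from their range. Probe sets with exactly 1 gene symbol in the platform annotation were kept (34945 of 45101), and a gene was represented by its brightest one. Genes above the table's median, 4.43, on at least 5 of 10 arrays were tested. No further normalization was applied. The limma package (3.58.1; lmFit and eBayes, under R 4.3.3) gave the changes, with lymphoma as a block, two-sided; the same fit gave the F test between lymphomas. Same-numbered arrays came from 1 animal's lymphoma, and their deviations from the group means correlated between 0.51 and 0.79 across genes. Means ± SD are over 5 lymphomas. The p of a change sets the mean paired change against the spread of the changes between lymphomas, as moderated by eBayes. The p of the F test sets differences between lymphomas against the spread within pairs. The number of arrays limits the precision of both. On simulated data of 11472 genes, 14% of genes changed by 0.5 and 60% of those changed by 1 were recovered with ADR, and 70% of genes shifted by 2 in 1 lymphoma by the F test. The simulated noise was normal and independent between genes, and the ADR shift was equal in all lymphomas. Real genes vary together, so these shares are only a guide. The 10 genes and all lists were chosen with earlier results of these data known. Besides the 10 genes, those named were up to 4 per list with 1 sign in all 5 lymphomas, up to 2 with the largest mean change, and the 3 genes most like Suv39h2 and Cbx5; exceptions are marked. Of 135 list entries, 7 had no named probe set and are not analysed here. Alternatives were no block, no filter, averaging of a gene's probe sets, a stricter filter, another quantile normalization, centring of arrays, array weights, a trended robust prior and omission of each lymphoma in turn; the shared Cbx3 probe set was added after seeing the data. Tables used Python 3.11.15 and pandas 2.3.3, and plots matplotlib 3.10.9.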

Additional observations from a re-analysis of the deposited data

Results flagged for a closer look

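In the untreated group, Kdm4b of lymphoma_9250 had a signal of 6.04, far from the other lymphomas, which lay between 6.74 and 6.82. It was the only value so far from its group among 30 groups of 5 values (levels in each group and changes of the 10 genes). Chance gives such a value in about 1 group in 20, so 1 among 30 is not unusual. The changes are computed from the same levels, so the groups are not independent.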

How the results depend on the processing

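The count of genes past the threshold with ADR was 0 in every alternative run, members included. Without the replicate block it was also 0, with 262 genes at an unadjusted p below 0.05 against 973 with the block and a smallest adjusted p of 0.9999, and Cbx5 lost its unadjusted p below 0.05. The genes at an unadjusted p below 0.05 were 518 lower and 455 higher, but 295 and 881 after centring of the arrays, 442 and 599 after another quantile normalization, and 289 and 551 without lymphoma_1032. The count of genes differing between lymphomas was 3089, and 1179 to 2796 when each lymphoma was left out. The lowest was without lymphoma_1032. The median change of the members was -0.26 to -0.074 in these omissions. Changes of sign were Suv39h2 (-0.45 to 0.033 over the omissions), Setdb1 (-0.020 to 0.11), Ehmt2 (-0.038 to 0.041, and 0.079 after centring), Kdm4a (-0.075 when its probe sets were averaged) and the T-cell marker Cd8a (-0.19 to 0.038); the cause was not tested. Of 129 alternative values of the members' changes 123 kept direction and side of the threshold. In the F test, 11 values of 4 members came below 0.05: with the trended robust prior Setdb1, Ehmt1, Ehmt2 and Cbx5 (adjusted p = 0.0463, 0.0216, 0.0149 and 0.0469), after another quantile normalization Setdb1, Ehmt1 and Ehmt2 (0.0480, 0.0390 and 0.0361), with the stricter filter Ehmt1 and Ehmt2 (0.0307 and 0.0306), with averaged probe sets Ehmt1 (0.0452), and without lymphoma_4936 Cbx5 (0.0308), where Kdm4c was lost.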
